A study of Arabidopsis thaliana with 54 samples.

Results

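Guvermectin (GV), which Streptomyces makes and which is a nucleoside of adenine, was compared with trans-zeatin (ZT), an adenine-type cytokinin, in RNA-seq libraries of whole Arabidopsis thaliana seedlings taken 5 min after the compounds were given. The comparison rests on 6 of the 54 libraries of the study, 3 with GV at 10 µM and 3 with ZT at 1 µM, and 3 libraries without a compound (control) at the same time stand beside them. The rest of the study holds the auxin IAA, the brassinosteroid eBL and the gibberellin GA3, each at 1 µM, and the same 6 groups at 30 and 180 min. All genes that averaged 1 FPKM or more (fragments per kilobase of gene and per fixed number of reads) in GV or ZT at 5 min were taken, which were 9147 of the 23997 in the deposited table. The deposited columns taken as GV were identified by elimination, since their names give no compound. The doses differ, 10 µM for GV against 1 µM for ZT, so the compound and its dose cannot be told apart in any difference given here. Accession, age and growth conditions of the seedlings are not stated by the labels.

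Cytokinins are adenine derivatives with a side chain on the amino group of the base, and trans-zeatin is a main active form in Arabidopsis. They bind histidine kinase receptors such as AHK4, and phosphate then passes through carrier proteins to type-B response regulators in the nucleus, which switch on type-A response regulators and cytokinin response factors. Purine nucleosides and cytokinins share transporters (purine permeases and equilibrative nucleoside transporters) and salvage and breakdown enzymes. Seedlings also answer touch, wounding and microbial signals within minutes, with calcium sensors, receptor-like kinases and transcription factors of the WRKY, ERF and MYB families among the early genes.

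If the values are FPKM, the size of 1 read implies 18.7 to 19.5 M reads in libraries with GV and 20.5 to 21.1 M with ZT. On that assumption, only 34.1 to 35.4% of GV reads and 32.6 to 33.5% of ZT reads fell on genes of the table. The table holds 18496 of 27562 protein-coding loci and no gene with a mean between 10.5 and 344 FPKM. Genes in that range were not analysed here. In a gene of 1 kb, 1 read corresponded to 0.0513 to 0.0536 FPKM in GV and to 0.0473 to 0.0488 FPKM in ZT, and values of that size are few reads. Across genes, log2 values correlated at 0.976 to 0.981 between GV libraries and 0.98 between ZT libraries, against 0.952 to 0.954 between a GV and a ZT library. Of 47 photosynthesis genes 46 were measured, of 28 root markers 14 and of 18 seed storage and reserve genes 12, so markers of leaves, roots and seed reserves were all present in these whole seedlings.

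Of the genes of salicylate and pathogen defence 10 of 16 measured were called lower in GV than in ZT, and of those of touch, wounding and early stress 11 of 21, among them the transcription factor MYB15. With quantile normalization these counts were 6 and 9. Of 12 measured seed storage and reserve genes 5 were called higher in GV and 2 lower. Of 46 photosynthesis genes 7 were called higher and 4 lower. The ferric reductase FRO6 and the NADH dehydrogenase NDA1 were also higher in GV than in ZT, though their values lay below the control. In all, 1574 genes differed (limma, Benjamini-Hochberg adjusted p under 0.05), which is 17.2% of those tested. Of these, 1130 were lower in GV (12.4%) and 444 were higher (4.85%), and the median log2 difference over all 9147 genes was -0.05. The split depended on scaling: with quantile normalization 866 were lower and 808 higher, that is 48.3% of calls higher instead of 28.2%. Leaving out 1 outlying library of another group (eBL at 30 min, replicate 3) raised the number higher in GV to 681 and the number lower to 1391. The 3 GV values lay wholly below the 3 ZT values in 2170 genes (23.7%) and wholly above them in 1285 (14.0%). Of the called genes, 167 were lower by more than 1 on the log2(FPKM + 1) scale and 30 were higher by more than 1.

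**Figure D1:**
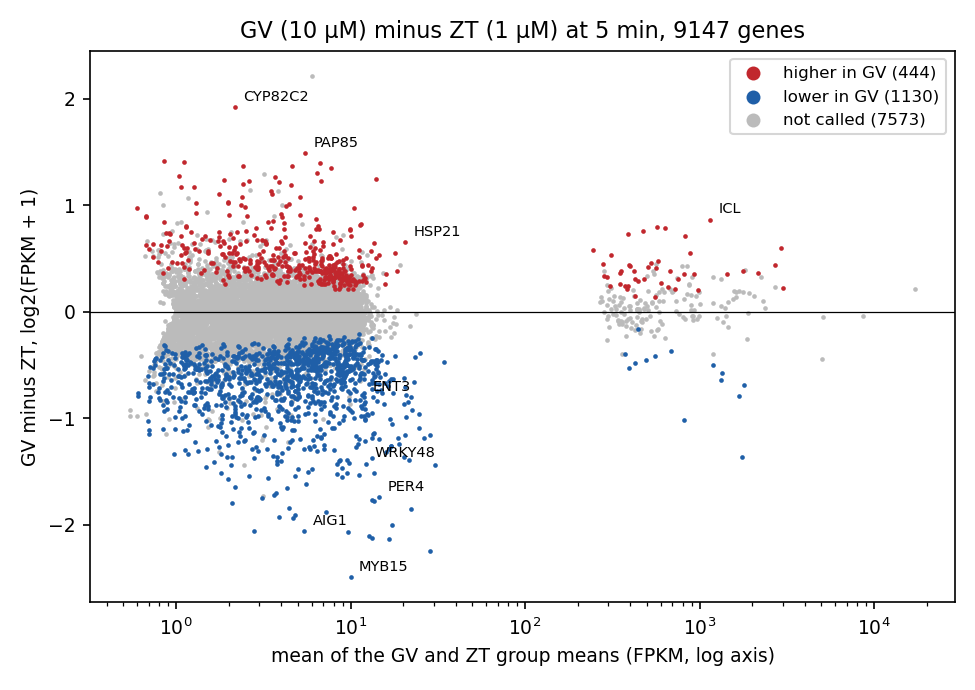
Each point is 1 of 9147 genes, with the mean of the GV and ZT group means on the horizontal axis (FPKM, log scale) and GV minus ZT on the vertical axis (log2(FPKM + 1)). Called genes are coloured: the 1130 lower in GV reach -2.50 at MYB15, whereas the 444 higher in GV reach 1.92 at CYP82C2, and no gene lies between about 10.5 and 344 FPKM over all libraries.

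MYB15 (AT3G23250, chromosome 3, 8309209 to 8310910, plus strand), an R2R3-MYB factor of cold, wounding and lignin responses, had the largest difference among named genes on the log2(FPKM + 1) scale. With a pseudocount of 0.1 it was at -2.88, behind MYB85 (-2.91) and CYP82C2 (3.29). Its level was 2.52, 2.35 and 2.09 FPKM in GV, 17.2, 18.3 and 17.6 FPKM in ZT and 0.828, 0.571 and 0.874 FPKM in the control. The 3 groups did not overlap, GV lying between the control and ZT, and the ZT mean was 7.63 times the GV mean. The difference was -2.50 ± 0.18 (log2, SE, n = 3 each; limma adjusted p = 2.35e-14). Set against the control libraries, which both comparisons share, MYB15 was higher by 0.92 in GV (adjusted p = 0.00018) and by 3.42 in ZT (adjusted p = 8.3e-20). It was also low with the other compounds at 5 min, at 0.82 FPKM with IAA, 0.85 FPKM with eBL and 1.2 FPKM with GA3.

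The second largest difference among the genes lower in GV was that of a disease response gene. AIG1 (AT1G33960, chromosome 1, 12346138 to 12348733, plus strand), a gene first known for its induction by an avirulent bacterium, was at 1.83, 1.55 and 1.11 FPKM in GV and at 8.76, 9.98 and 9.29 FPKM in ZT. The GV values overlapped those of the control (1.24, 1.46 and 1.28 FPKM), and all ZT values were far above both. The difference was -2.06 ± 0.14 (limma adjusted p = 1.24e-14). PEP3, which encodes the precursor of an elicitor peptide that amplifies defence, had 1.98, 1.45 and 3.29 FPKM in GV against 7.37, 7.66 and 11.6 FPKM in ZT (-1.62 ± 0.27, adjusted p = 2.07e-05). In the control it was at 0.304 to 0.481 FPKM, below every GV value.

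The transcription factor ERF114, of the ethylene response factor family, had 2.81, 2.42 and 2.30 FPKM in GV against 10.7, 12 and 13.1 FPKM in ZT (-1.88 ± 0.20, limma adjusted p = 1.25e-09). PRN1, a pirin that binds a G-protein subunit, had 6.14, 5.93 and 4.92 FPKM in GV against 20.9, 22 and 22.5 FPKM in ZT (-1.78 ± 0.13, adjusted p = 8.15e-14). The groups did not overlap in either gene, and the control lay below GV in both, at 1.16 to 1.31 FPKM for ERF114 and 3.03 to 3.24 FPKM for PRN1. The peroxidase PER4, an enzyme of the cell wall space, was at 5.92, 5.93 and 6.70 FPKM in GV against 22.2, 26.5 and 20.5 FPKM in ZT (-1.74 ± 0.17, adjusted p = 2.13e-10). Here GV was itself well above the control (0.666 to 1.06 FPKM), by 1.94 (adjusted p = 8.2e-12).

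In other genes the GV values overlapped the control or lay below it. The pectin methylesterase PME20, which modifies cell wall pectin, was at 1.23, 1.69 and 1.37 FPKM in GV against 8.39, 7.36 and 8.65 FPKM in ZT (-1.91 ± 0.15, limma adjusted p = 3.21e-13). GATL2, of a family of galacturonosyltransferase-like proteins, was at 1.38, 0.89 and 0.858 FPKM in GV against 6.81, 6.71 and 6.71 FPKM in ZT (-1.93 ± 0.17, adjusted p = 8.61e-12). In the control PME20 spanned 0.761 to 1.54 FPKM and GATL2 0.875 to 1.24 FPKM, so GV and control overlapped for both genes while ZT stood apart. CML47, a calmodulin-like protein, had 0.95, 0.744 and 0.909 FPKM in GV, 4.43, 5.04 and 6.51 FPKM in ZT and 1.39 to 2.1 FPKM in the control (GV minus ZT -1.75 ± 0.20, adjusted p = 9.71e-09). All GV values of CML47 lay below the control, but GV minus control was not called (-0.48, adjusted p = 0.13).

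The remaining genes of the 12 lowest were the arabinogalactan protein AGP5 (-1.84), the cysteine-rich receptor-like kinase listed as CRK34 at AT4G11521 (-1.65) and the secreted ribonuclease RNS1 (-1.55). In all 12 the ZT group had the highest mean of the 6 groups taken at 5 min. Against the control, ZT was called higher in 12 of the 12 and GV in 7, where 21.7% and 8.64% of all genes were. The 12 were chosen for high ZT values against GV, so a high level in ZT is in part built in. Receptor-like kinases of the cysteine-rich family and the neighbouring peroxidase genes PER4 and PER5 have close copies, between which reads may be split.

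**Figure D2:**
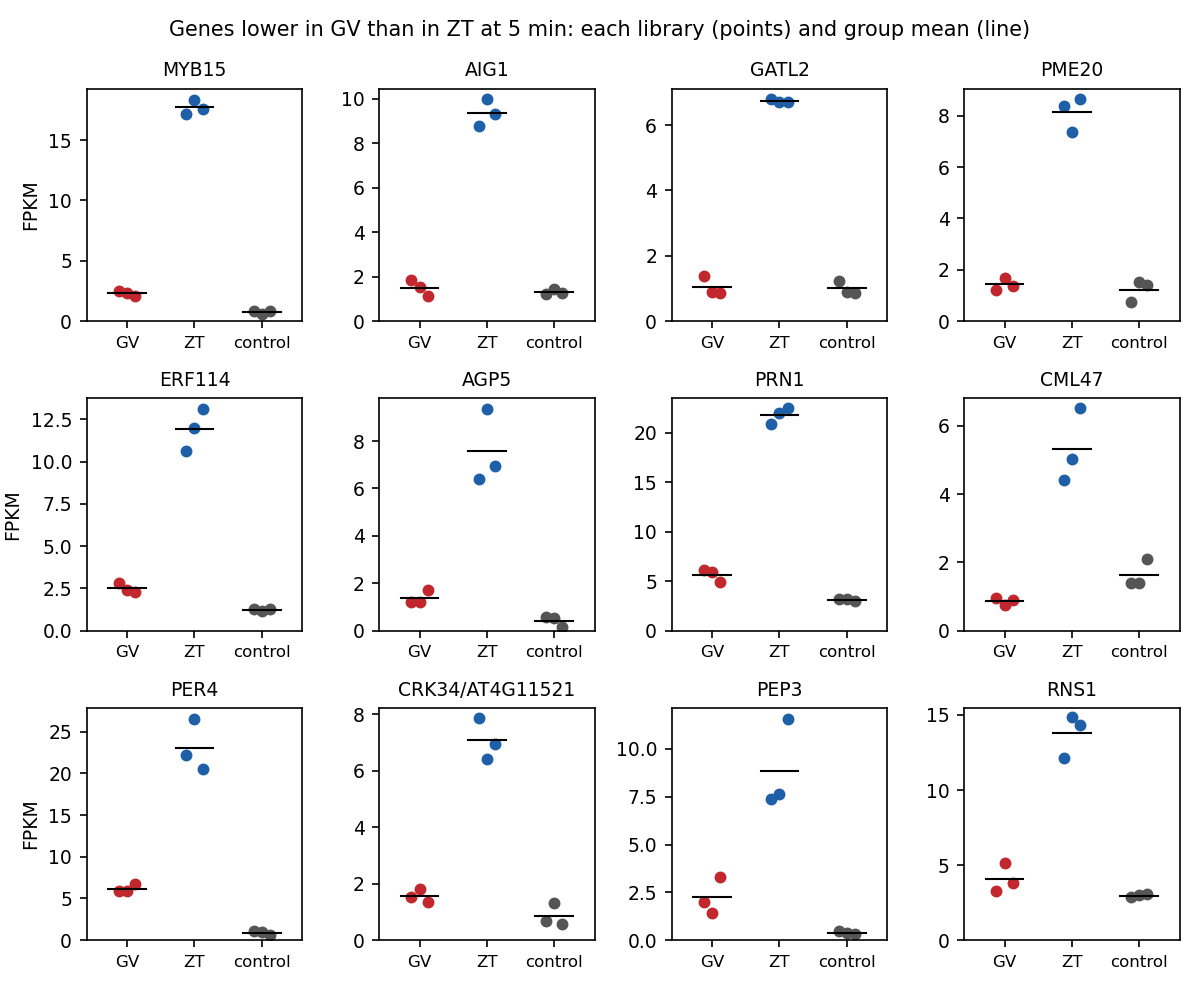
FPKM of the 12 named genes with the largest differences lower in GV, with a point for each library and a line at the group mean (n = 3), GV and ZT first and the control last. In each panel the 3 ZT points lie above the 3 GV points, and the distance of GV from the control varies, from wide for PER4 (5.92 to 6.70 against 0.666 to 1.06 FPKM) to overlapping for AIG1 and PME20.

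Genes that were higher in GV than in ZT were mostly those that lay lower in ZT than in the control. PAP85 (AT3G22640, chromosome 3, 8011724 to 8013941, minus strand), a vicilin-like seed storage protein, was at 8.31, 8.21 and 9.32 FPKM in GV and at 2.34, 2.12 and 2.82 FPKM in ZT. The control spanned 7.67 to 8.08 FPKM, close to GV and above every ZT value. The difference between GV and ZT was 1.49 ± 0.11 (limma adjusted p = 4.76e-14). FRO6, a ferric reductase of leaf cells, was at 10.7, 9.88 and 10.0 FPKM in GV and at 3.38, 3.41 and 2.98 FPKM in ZT (1.40 ± 0.16, adjusted p = 1.03e-08). NDA1, an alternative NADH dehydrogenase of mitochondria, was at 17.6, 21.4 and 21.2 FPKM in GV and at 7.34, 7.28 and 9.03 FPKM in ZT (1.24 ± 0.16, adjusted p = 1.88e-07). For both genes the control was above GV, at 13.2 to 13.9 FPKM for FRO6 and 24.5 to 25.7 FPKM for NDA1, but neither GV difference from the control was called (adjusted p = 0.16 and 0.24).

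The transcription factor WRKY49 was the single WRKY gene called higher in GV, at 13.3, 10.7 and 10.8 FPKM in GV against 3.39, 3.6 and 4.83 FPKM in ZT (1.35 ± 0.27, limma adjusted p = 0.000236). CIPK16, a kinase that works with calcium sensors, was at 4.84, 6.52 and 5.47 FPKM in GV against 2.33, 1.14 and 1.85 FPKM in ZT (1.27 ± 0.14, adjusted p = 1.89e-09). In both genes the GV and control values overlapped and the ZT values lay below them. DTX50, a transporter of the MATE family that exports abscisic acid, differed from the control by -0.50 in GV and -1.51 in ZT and was higher in GV than in ZT by 1.01 ± 0.12 (adjusted p = 1.13e-08). TIP3-2, a water channel of seed vacuoles, was at 7.83, 12.4 and 8.42 FPKM in GV, 3.14, 3.1 and 3.41 FPKM in ZT and 5.61 to 7.68 FPKM in the control (GV minus ZT 1.30 ± 0.21). Every TIP3-2 value in GV lay above the control and every one in ZT below it, but only ZT minus control was called (-0.81, adjusted p = 0.002, against 0.48, adjusted p = 0.14, in GV). The jacalin-like lectin JAL20 was higher by 0.87, and UP6, a gene named for an unknown protein, by 0.92. The call of UP6 was lost with a pseudocount of 0.1, without GV replicate 2 and without ZT replicate 1.

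A few genes of this side were instead higher in GV than in the control. ICL (AT3G21720, chromosome 3, 7652487 to 7656053, minus strand), isocitrate lyase of the glyoxylate cycle that turns seed oil into sugar, was at 1426, 1606 and 1437 FPKM in GV, 804, 795 and 852 FPKM in ZT and 390 to 438 FPKM in the control. The 3 groups did not overlap, and GV exceeded ZT by 0.86 ± 0.07 (limma adjusted p = 2.54e-12). The late embryogenesis proteins ECP63 and EM1 guard drying seeds. ECP63 was at 6.81, 6.55 and 6.71 FPKM in GV and at 2.86, 2 and 2.32 FPKM in ZT (1.19 ± 0.19, adjusted p = 1.25e-05), and EM1 at 4.99, 5.33 and 5.2 FPKM in GV and 1.65, 1.33 and 2.59 FPKM in ZT (1.14 ± 0.23, adjusted p = 0.000326). For these 2 genes it was ZT that overlapped the control, which spanned 2.69 to 4.07 FPKM for ECP63 and 1.53 to 2.39 FPKM for EM1.

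Outside these 12, which are limited to genes that reach 5 FPKM, CYP82C2 had a larger difference. This cytochrome P450 of tryptophan-derived defence metabolism was at 4.31, 4.12 and 3.61 FPKM in GV and at 0.26, 0.309 and 0.399 FPKM in ZT, and it was listed at 0 in all 3 control libraries. The groups stood wide apart, with a difference of 1.92 ± 0.12 (limma adjusted p = 7.28e-16). CYP82C2 was listed at 0 with IAA and eBL too, and had a mean of 2.48 FPKM with GA3. Among the 12 largest, ZT had the lowest mean of the 6 groups in 6 genes. ZT was called lower than the control in 9 of the 12, where 8.06% of all genes were. These 12 were chosen for low ZT values against GV, so a low level in ZT is in part built in.

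**Figure D3:**
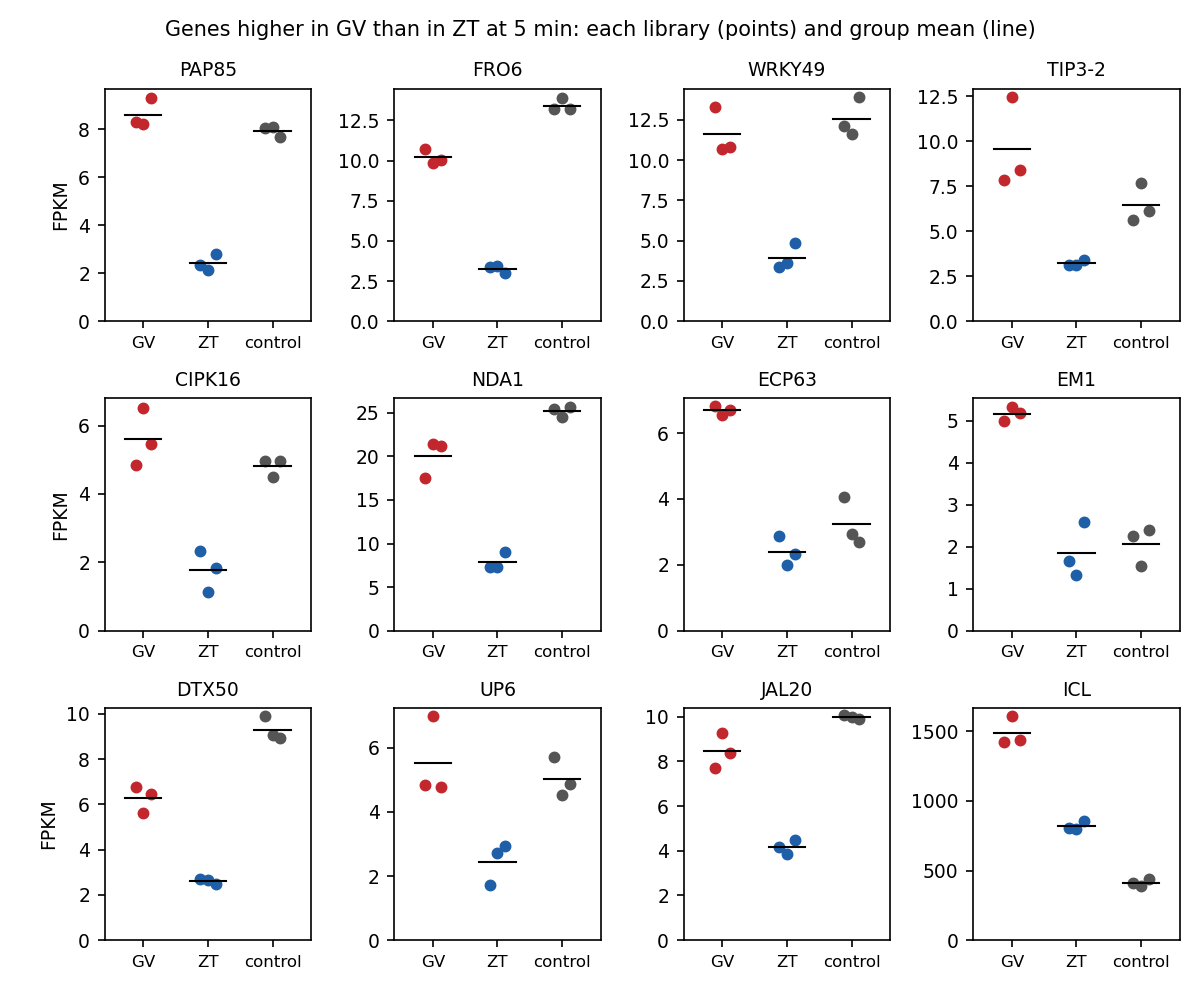
FPKM of the 12 named genes with the largest differences higher in GV, with a point for each library and a line at the group mean (n = 3), GV and ZT first and the control last. The ZT points lie below the GV points in every panel. For PAP85 the control lies near GV, for FRO6 above it, and for ECP63 and EM1 near ZT.

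Over all called genes the same division was seen. The 1130 genes lower in GV had a median log2 difference of -0.59 between GV and ZT, and their medians against the control were 0.12 in GV and 0.72 in ZT. Of them, 961 (85%) were called higher in ZT than in the control, where 21.7% of all genes were, and 233 (20.6%) were called higher in GV than in the control, where 8.64% of all genes were. The 444 genes higher in GV had a median of 0.44 between GV and ZT, and medians of 0.04 in GV and -0.38 in ZT against the control. Of them, 282 (63.5%) were called lower in ZT than in the control, where 8.06% of all genes were, and 85 (19.1%) were called higher in GV than in the control. These comparisons share the GV, ZT and control libraries, so the counts describe the genes and are no independent evidence.

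Promoters of some of these genes are shown because WRKY factors, many of which differed between the compounds, bind the W-box, and because the G-box is a common site of plant bZIP and bHLH factors. The windows hold the 250 bases before the annotated gene start in the TAIR10.1 genome of RefSeq, written 5′ to 3′ on the strand of the gene. Of the 12 genes lowest in GV, the 3 with a W-box core follow, with TTGAC and its reverse complement GTCAA in capitals. The windows are those of PEP3 at chr5:25939312-25939561 (plus strand), PME20 at chr2:19508679-19508928 (plus strand) and CRK34 at chr4:6985267-6985516 (plus strand).
PEP3: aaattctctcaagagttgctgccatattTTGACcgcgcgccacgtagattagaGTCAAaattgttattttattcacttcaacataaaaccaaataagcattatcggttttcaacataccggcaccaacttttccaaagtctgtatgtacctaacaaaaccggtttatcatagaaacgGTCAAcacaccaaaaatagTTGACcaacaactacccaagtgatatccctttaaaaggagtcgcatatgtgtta
PME20: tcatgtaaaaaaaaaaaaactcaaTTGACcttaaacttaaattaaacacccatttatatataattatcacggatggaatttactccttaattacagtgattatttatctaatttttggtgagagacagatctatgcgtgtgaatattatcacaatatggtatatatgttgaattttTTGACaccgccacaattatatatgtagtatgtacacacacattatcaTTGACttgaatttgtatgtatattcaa
CRK34: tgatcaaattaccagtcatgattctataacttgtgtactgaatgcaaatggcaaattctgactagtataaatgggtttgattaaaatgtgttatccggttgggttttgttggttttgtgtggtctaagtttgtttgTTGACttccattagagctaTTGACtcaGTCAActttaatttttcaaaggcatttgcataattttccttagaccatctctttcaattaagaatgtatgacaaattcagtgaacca

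The window of PEP3 held 4 W-box cores and those of PME20 and CRK34 held 3 each, while the windows of the other 9 genes, MYB15 included, held none of these letters. Genes highest in GV held W-box cores too, with 3 in the window of DTX50, 2 in that of EM1 and 1 each in those of PAP85, TIP3-2 and ICL. The windows of FRO6, WRKY49, CIPK16, NDA1, UP6 and JAL20 held none. Of the genes lower in GV, 56.6% of 1122 windows held TTGAC on either strand, against 47.7% of 440 windows of genes higher in GV and 46.4% of all 8983 windows. The shares for CGCGT, a motif bound by calmodulin-binding CAMTA factors, were 10.8% among genes lower in GV, 6.59% among those higher and 7.14% overall. For the heat shock element GAANNTTC they were 12.9%, 6.14% and 9.6% in the same order. The type-B response regulator core AAGATT was in 29.5% of windows of genes lower in GV, in 29.5% of those higher and in 29.2% of all. The GCC-box GCCGCC was in 1.34%, 1.36% and 1.97%, and the evening element AAAATATCT in 3.03%, 3.86% and 2.6%, again in that order. None of the 7 motifs searched contains another, and these shares are descriptions with no test.

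The G-box CACGTG, which reads the same on both strands, was in 8.02% of windows of genes lower in GV, in 11.4% of those higher and in 7.35% of all. Windows that held it are shown for FRO6 and UP6, which are among the 12 genes highest in GV, with the G-box in capitals. They lie at chr5:20204596-20204845 for FRO6 and chr1:5727407-5727656 for UP6, both on the minus strand. The windows of PAP85, WRKY49, TIP3-2 and ICL, also among the genes highest in GV, held none, whereas that of PRN1, among the 12 lowest, held 2.
FRO6: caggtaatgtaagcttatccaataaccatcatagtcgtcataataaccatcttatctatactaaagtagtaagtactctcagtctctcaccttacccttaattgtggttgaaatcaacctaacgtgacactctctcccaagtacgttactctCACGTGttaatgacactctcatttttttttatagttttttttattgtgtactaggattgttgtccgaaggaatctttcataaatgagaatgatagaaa
UP6: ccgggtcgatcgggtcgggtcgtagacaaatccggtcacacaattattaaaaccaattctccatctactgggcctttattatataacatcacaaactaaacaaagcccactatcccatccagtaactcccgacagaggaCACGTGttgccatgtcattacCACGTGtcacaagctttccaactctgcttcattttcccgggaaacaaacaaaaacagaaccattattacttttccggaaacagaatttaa

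Of the genes of cytokinin signalling and turnover 17 were in the table and 8 were measured, with 1 called higher and 1 lower in GV, that is 25% of the list against 17.2% of all genes. Their median was -0.10, against -0.05 over all genes. The receptor AHK4 was at 3.34, 3.32 and 3.36 FPKM in GV and at 2.30, 2.47 and 2.69 FPKM in ZT, with no overlap (0.32 ± 0.10, limma adjusted p = 0.017). The cytokinin response factor CRF3 was at 0.393, 0.342 and 0.89 FPKM in GV and at 1.16, 1.36 and 1.09 FPKM in ZT (-0.53 ± 0.15, adjusted p = 0.00843). Both calls were lost when single libraries were left out, AHK4 without GV replicate 3, ZT replicate 1 or ZT replicate 2 and CRF3 without GV replicate 1 or GV replicate 2. CRF5 was at 7.35, 9.60 and 8 FPKM in GV and at 8.63, 10.4 and 11.5 FPKM in ZT, and its difference of -0.26 was not called (adjusted p = 0.129, 95% interval -0.50 to -0.03).

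The type-A response regulator ARR16, a negative regulator of cytokinin signalling, was at 2.05, 2.58 and 1.84 FPKM in GV and at 2.51, 3.01 and 2.40 FPKM in ZT, and the groups overlapped. Its difference was -0.21 with a 95% interval of -0.47 to 0.05 (limma adjusted p = 0.323). Against the shared control ARR16 was higher by 0.39 in ZT (adjusted p = 0.017) and by 0.19 in GV (adjusted p = 0.44), and CRF5 by 0.66 in ZT (adjusted p = 1.4e-05) and 0.40 in GV (adjusted p = 0.017). For the cytokinin oxidase CKX5, the hydroxylase CYP735A2 and the response factors CRF1 and CRF2 the intervals reached from -0.47 to 0.49 at their widest. Several type-A response regulators, such as ARR3, ARR15 and ARR17, were below 1 FPKM in both groups, and ARR4 to ARR9 were not analysed here.

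Genes of purine and cytokinin transport and metabolism gave 1 call higher and 4 lower in GV of 21 measured (38 in the table), with a median of -0.15. The share called higher was 4.76%, near the 4.85% of all genes, and the share called lower was 19.0% against 12.4% of all genes. The nucleoside transporter ENT3 was at 8.09, 8.45 and 8.69 FPKM in GV and at 15.5, 14.3 and 16.6 FPKM in ZT, and the control spanned 6.74 to 8.23 FPKM. ZT stood apart from GV and control, with a difference of -0.81 ± 0.10 between GV and ZT (limma adjusted p = 2.29e-08). The purine permease family member PUP10 was at 3.65, 4.29 and 3.18 FPKM in GV and at 6.32, 6.03 and 6.83 FPKM in ZT (-0.66 ± 0.15, adjusted p = 0.00161). The breakdown enzymes xanthine dehydrogenase XDH2 (-0.65 ± 0.15, adjusted p = 0.00114) and nucleoside hydrolase URH2 (-0.38 ± 0.11, adjusted p = 0.0179) were lower in GV as well, URH2 losing its call in 6 of 17 alternatives.

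The glucosyltransferase UGT73C1, which can attach glucose to the side chain of zeatin, went the other way. It was at 3.58, 3.90 and 3.70 FPKM in GV, 1.70, 1.88 and 2.02 FPKM in ZT and 4.49 to 5.64 FPKM in the control. The 3 groups did not overlap, and GV exceeded ZT by 0.72 ± 0.13 (limma adjusted p = 3.59e-05). The other 16 measured genes, among them the synthesis enzymes IPT2, IPT3 and IPT5, the activating LOG1, LOG5 and LOG7, the salvage enzyme APT2 and the transporters ENT1 and PUP11, were not called, and their 95% intervals lay within -0.67 and 0.70. Those of ENT1 (0.04 to 0.58, limma adjusted p = 0.127) and the cytokinin oxidase CKX7 (0.01 to 0.70, adjusted p = 0.171) lay wholly on the side higher in GV. ENT1 was called in 2 of 17 alternatives and CKX7 in 4.

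The lists that follow are read against the 12.4% of all genes called lower in GV and the 4.85% called higher. WRKY factors, which act in defence and senescence, were lower in GV in 13 of 28 measured members (51 in the table), with 1 higher and a median of -0.41. WRKY48 was at 6.62, 5.64 and 6.32 FPKM in GV, 18.2, 19.9 and 16.9 FPKM in ZT and 3.19 to 4.17 FPKM in the control, with no overlap of the 3 groups (GV minus ZT -1.43 ± 0.16, limma adjusted p = 2.59e-09). WRKY60 was at 10.8, 9.11 and 8.98 FPKM in GV against 21.8, 27.0 and 24.4 FPKM in ZT (-1.26 ± 0.14, adjusted p = 6e-09). WRKY53, a regulator of leaf senescence, was at 3.76, 2.37 and 3.58 FPKM in GV against 9.60, 9.18 and 8.42 FPKM in ZT (-1.26 ± 0.17, adjusted p = 4.2e-07), and WRKY28 differed by -0.98 ± 0.13. Every GV value of these genes lay below every ZT value and above every control value.

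MYB factors were lower in 11 of 40 measured members (110 in the table) and higher in 1, with a median of -0.13. Beside MYB15, MYB85 was at 0.0366, 0.459 and 0.222 FPKM in GV against 1.84, 2.37 and 2.09 FPKM in ZT (-1.33 ± 0.13, limma adjusted p = 3.15e-10) and MYB42 at 0.206, 0.129 and 0.497 FPKM in GV against 1.53, 1.25 and 1.49 FPKM in ZT (-0.93 ± 0.11, adjusted p = 1.11e-08). Both are known as regulators of lignin and secondary wall genes, and their GV values rest on few reads. Without GV replicate 3 the MYB count fell to 7. ERF and DREB factors were lower in 5 (13.5%) and higher in 2 (5.41%) of 37 members, with a median of -0.10. These shares were near those of all genes, but 11 of these factors were lower with only the 18 libraries of 5 min in the fit. NAC factors were lower in 3 (12%) and higher in 1 (4%) of 25, also near the 12.4% and 4.85% of all genes.

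Receptor-like kinases, which sense signals at the cell surface, were lower in GV in 29 of 63 measured members (117 in the table) and higher in 2, with a median of -0.27. CRK13 was at 17, 15 and 16 FPKM in GV against 48.6, 43.5 and 43.7 FPKM in ZT (-1.45 ± 0.15, limma adjusted p = 5.49e-10). The flagellin receptor FLS2 was at 10.4, 11.6 and 10.8 FPKM in GV against 19.5, 18.4 and 16.5 FPKM in ZT (-0.68 ± 0.08, adjusted p = 3.5e-08). The groups did not overlap in either gene, and the control of FLS2 (9.31 to 9.50 FPKM) lay just below GV. Against the shared control, 25 of the 63 kinases were called higher in GV and 41 in ZT, where 8.64% and 21.7% of all genes were.

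Calcium sensors and calcium-regulated kinases were lower in 20 of 57 measured members (107 in the table) and higher in 1, with a median of -0.23. CML41, a calmodulin-like protein of plasmodesmata, was at 2.44, 5.61 and 5.25 FPKM in GV against 15.6, 11.7 and 13.2 FPKM in ZT (-1.47 ± 0.18, limma adjusted p = 6.37e-08). The control spanned 6.28 to 8.30 FPKM, so CML41 lay below the control in GV and above it in ZT, without overlap. Class III peroxidases, which cross-link cell walls and form reactive oxygen, were lower in 9 of 27 and higher in 1 (53 in the table), with a median of -0.20. PER52 was at 0.511, 0.534 and 0.555 FPKM in GV against 4.32, 3.05 and 4.16 FPKM in ZT (-1.65 ± 0.18, adjusted p = 3.54e-09).

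Genes of salicylate and pathogen defence were lower in GV in 10 of 16 measured members (24 in the table), with 0 called higher by limma (0 also at an unadjusted p under 0.05) and a median of -0.46, and the count was 6 with quantile normalization. PR1, the marker of salicylate defence, was at 3.64, 2.50 and 2.81 FPKM in GV, 7.1, 10.1 and 8.72 FPKM in ZT and 3.87 to 4.85 FPKM in the control (GV minus ZT -1.27 ± 0.18, limma adjusted p = 8.96e-07). CBP60G, a calmodulin-binding activator of salicylate synthesis, was at 5.76, 5.74 and 5.42 FPKM in GV against 13.3, 12.2 and 11.8 FPKM in ZT (-1.02 ± 0.09, adjusted p = 1.97e-11). SIRK, a receptor-like kinase of senescence, differed by -1.19 ± 0.13. In PR1 every GV value lay below the control as well, but GV minus control was not called (adjusted p = 0.18).

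Touch, wounding and early stress genes were lower in 11 of 21 measured members (25 in the table), with 0 called higher (0 also at an unadjusted p under 0.05) and a median of -0.43. WRKY40 was at 8.44, 8.25 and 8.19 FPKM in GV against 15.9, 16.9 and 14.5 FPKM in ZT (-0.85 ± 0.12, limma adjusted p = 6.61e-07), and the repressor ERF11 differed by -1.17 ± 0.19. Jasmonate genes were lower in 7 of 16 and higher in 1, with a median of -0.26, and with quantile normalization 4 were lower. The repressor JAZ10 was at 3.64, 3.65 and 3.52 FPKM in GV against 6.17, 6.34 and 6.77 FPKM in ZT (-0.69 ± 0.11, adjusted p = 4.07e-06). The lipoxygenase LOX2 was instead higher, at 7.04, 6.28 and 7.07 FPKM in GV against 4.11, 3.88 and 4.91 FPKM in ZT (0.56 ± 0.13, adjusted p = 0.00141), a call that was lost with a pseudocount of 0.1.

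Ethylene genes were lower in 4 of 11 measured members, with 0 called higher (0 also at an unadjusted p under 0.05) and a median of -0.24. Of the enzymes that make the ethylene precursor, ACS11 was at 2.51, 2.68 and 2.64 FPKM in GV against 7.18, 6.43 and 6.85 FPKM in ZT (-1.11 ± 0.16, limma adjusted p = 7.58e-07), and ACS6 (-0.70) and ACS7 (-0.64) were lower too, although ACS7 lost its call with quantile normalization (-0.18, adjusted p = 0.225). In other hormone lists the calls were 2 lower of 11 auxin genes (PID and IAA20), 1 higher of 21 SAUR genes, 2 each way of 11 abscisic acid genes, and 3 higher and 2 lower of 9 gibberellin genes. These counts moved when single libraries were left out: without GV replicate 2 both auxin calls and the 3 calls of gibberellin genes higher were lost, without ZT replicate 2 1 gibberellin gene was higher, and the SAUR call was lost in 8 of 17 alternatives. Without GV replicate 2 or 3 or ZT replicate 2 or 3, 1 abscisic acid gene was higher, and without GV replicate 3 or ZT replicate 3, 1 gibberellin gene was lower. Without ZT replicate 3, 1 auxin gene was lower. Of 6 brassinosteroid genes CYP734A1, which inactivates the hormone, was higher (0.64 ± 0.13) and AGP4 lower (-0.93 ± 0.17). GA2OX6, an enzyme that inactivates gibberellin, was at 5.69, 4.37 and 4.90 FPKM in GV against 10.3, 12.3 and 9.89 FPKM in ZT (-0.98 ± 0.15, adjusted p = 1.74e-06).

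**Figure D4:**
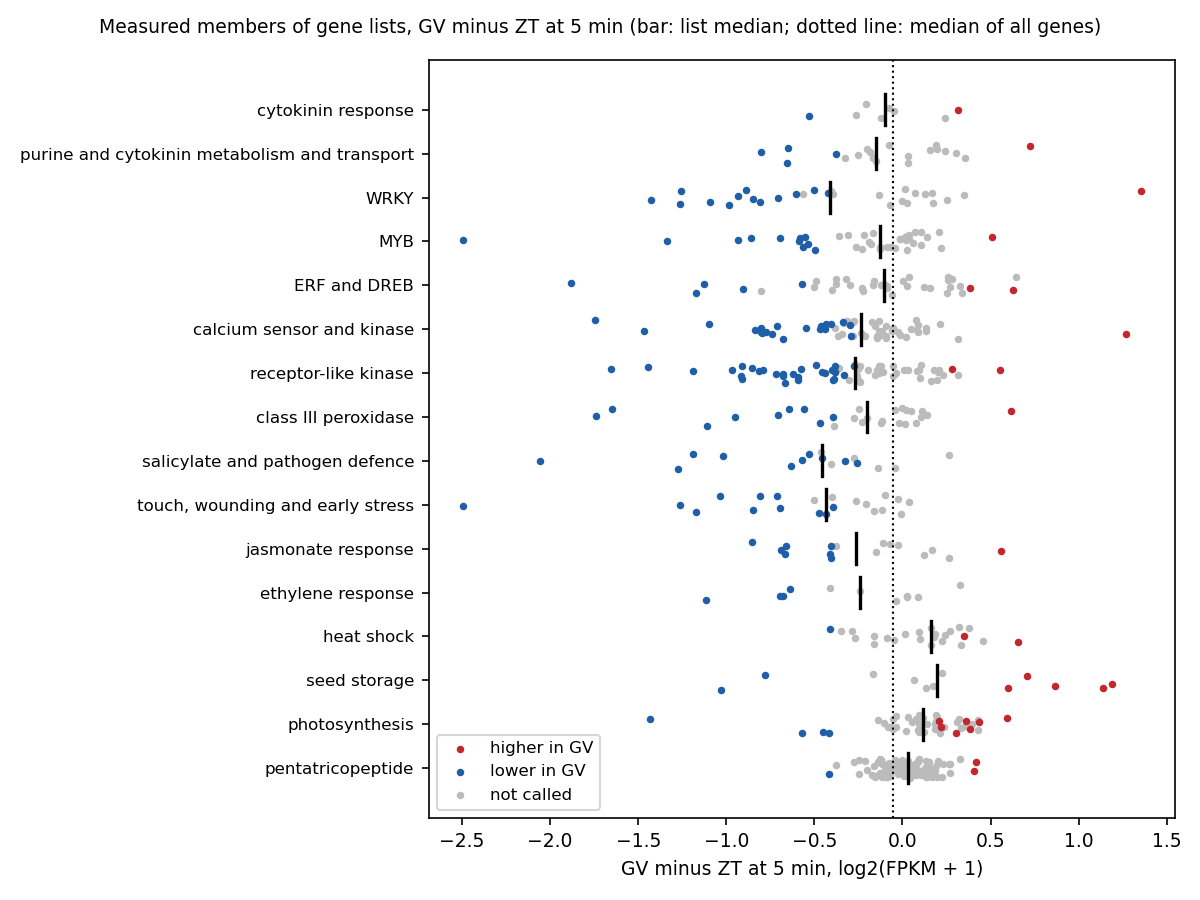
GV minus ZT at 5 min (log2(FPKM + 1), horizontal axis) for the measured members of 16 gene lists, each point a gene, coloured where called. Black bars are list medians, which lie at -0.46 for salicylate and pathogen defence, -0.43 for touch and wounding, -0.41 for WRKY factors and -0.10 for cytokinin response, and the dotted line is the median of all genes (-0.05).

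Some heat shock genes were well above the control with both compounds. Of 24 measured heat shock genes (31 in the table) 10 were called higher than the control in GV and 11 in ZT. Over all genes 8.64% were called higher than the control in GV and 21.7% in ZT. In ZT 2 of the 24 were called lower than the control, where 8.06% of all genes were. Medians against the control were 0.07 in GV and 0.16 in ZT. HSP21, a small heat shock protein of chloroplasts, was at 30.0, 24.3 and 21.8 FPKM in GV, 13.9, 18.0 and 15.3 FPKM in ZT and 0.203, 0.206 and 0.643 FPKM in the control. The GV and ZT values did not overlap (0.65 ± 0.15, limma adjusted p = 0.00169), although the call was lost with a pseudocount of 0.1. HSP70-8 was at 16.2, 20.1 and 17.6 FPKM in GV and at 14.9, 13.2 and 13.5 FPKM in ZT (0.35 ± 0.11, adjusted p = 0.0195), and this call was lost without GV replicate 2, ZT replicate 2 or ZT replicate 3. Between GV and ZT 2 of the 24 were called higher in GV and 1, the factor HSFA4A, lower (-0.41 ± 0.10), with a median of 0.16. With quantile normalization 6 were called higher and the call of HSFA4A was lost. The ascorbate peroxidase APX2 had 8.55, 8.03 and 5.61 FPKM in GV and 6.26, 4.83 and 4.21 FPKM in ZT, which overlap, and its difference was not called (0.46, adjusted p = 0.0523).

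Some of the heat shock and seed reserve genes named above were also high with GA3 at 5 min, but PAP85 and TIP3-2 were not. HSP21 had a mean of 27.3 FPKM with GA3, 0.467 FPKM with IAA and 1.66 FPKM with eBL, and ICL had means of 3038 FPKM with GA3, 598 FPKM with IAA and 444 FPKM with eBL. ECP63 and EM1 reached 30.2 and 23.6 FPKM with GA3, far above their means of 6.69 and 5.17 FPKM in GV. What these libraries share beside their compounds was not tested.

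**Figure D5:**
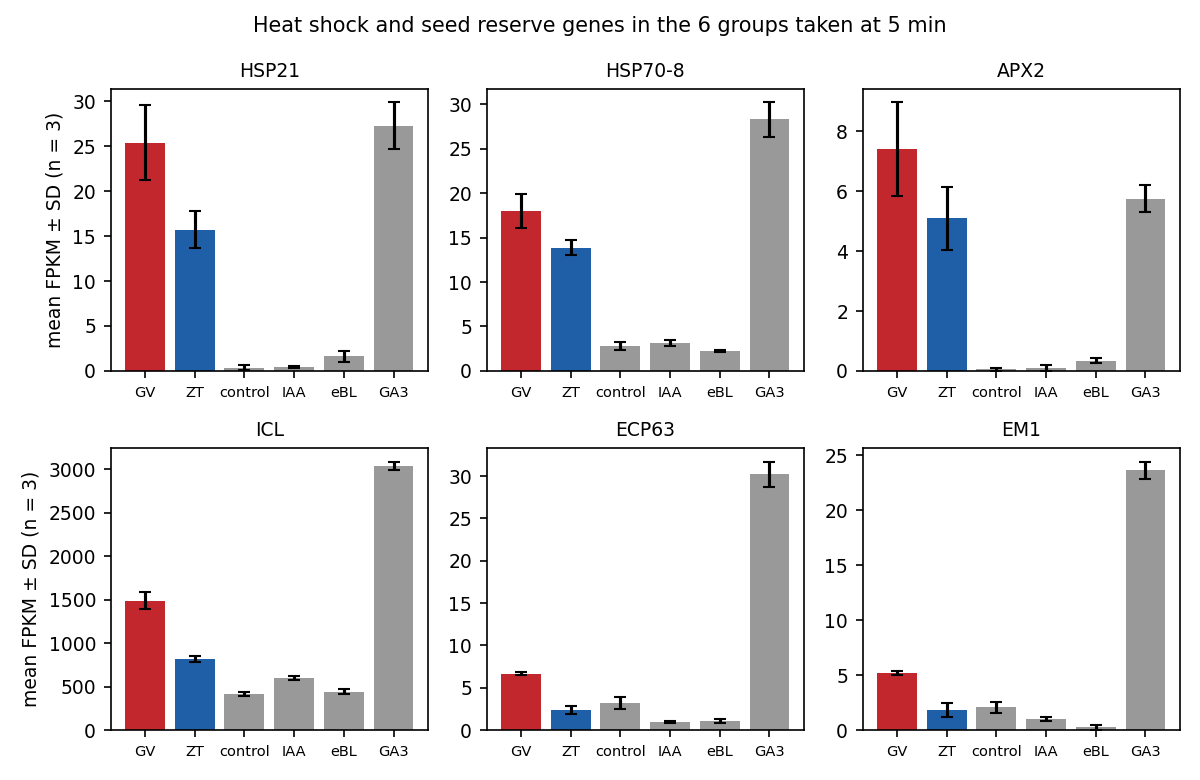
Mean FPKM with SD (n = 3) of 3 heat shock genes (upper row) and of ICL, ECP63 and EM1 (lower row) in the 6 groups taken at 5 min. HSP21, HSP70-8 and APX2 are high in GV, ZT and GA3 and low in control, IAA and eBL, whereas ICL, ECP63 and EM1 are highest in GA3, with GV above ZT.

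Of 12 measured genes for seed storage and reserves 5 were higher and 2 lower in GV, with a median of 0.20. The summed level of the list, most of it ICL, was 1802 to 1994 FPKM in GV, 1153 to 1214 FPKM in ZT and 745 to 803 FPKM in the control. The median of the list against the control went the other way, at -0.21 in GV and -0.29 in ZT. Cruciferin CRC (AT4G28520), a storage globulin, was at 2.23, 2.47 and 2.56 FPKM in GV and at 0.957, 1.34 and 1.01 FPKM in ZT (0.71 ± 0.12, limma adjusted p = 2.79e-05), both far below the control at 12.9 to 13.8 FPKM. The albumin AT2S3, which has near-identical neighbours, was at 0.0668 to 0.14 FPKM in GV and at 1.23 to 1.34 FPKM in ZT (-1.03 ± 0.17). In whole seedlings, fewer cells of a type and less RNA per cell cannot be told apart, and the part of organ make-up in these differences was not tested.

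Of 46 photosynthesis genes 7 were called higher in GV and 4 lower, with a median of 0.12. Against the control the median of the list was -0.11 in GV and -0.26 in ZT. The summed level was 87118 to 94022 FPKM in GV, 78433 to 82981 FPKM in ZT and 96267 to 99518 FPKM in the control. LHCA4, an antenna protein of photosystem I, was at 2821, 3390 and 3133 FPKM in GV and at 2235, 2266 and 2392 FPKM in ZT (0.44 ± 0.08, limma adjusted p = 4.1e-05), and LHCA1 differed by 0.38. The number called higher was 4 without GV replicate 2 and 17 when the outlying eBL library was left out of the fit. Of the 4 called lower, PORA, the protochlorophyllide reductase of dark-grown seedlings, was at 3.74, 3.91 and 4.58 FPKM in GV, 12.8, 12.1 and 13.1 FPKM in ZT and 1.16 to 1.5 FPKM in the control (GV minus ZT -1.43 ± 0.11, adjusted p = 4.86e-13). RBCS-2B, a small subunit of Rubisco with near-identical copies, was another (-0.57 ± 0.07). Root markers were higher in 2 and lower in 4 of 14, with a median of -0.09, and their summed level was 1808 to 2021 FPKM in GV against 2317 to 2394 FPKM in ZT, most of it from GRP3 and BGLU23. The number lower was 1 with quantile normalization, without GV replicate 1 and without ZT replicate 3, and 2 without any one of the other GV and ZT libraries, and the number higher was 1 without GV replicate 2 or ZT replicate 3.

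The calls of the remaining lists were as follows. Of 102 pentatricopeptide genes 2 were higher and 1 lower, of 58 chloroplast-encoded genes 0 were called by limma (2 higher and 3 lower at an unadjusted p under 0.05), and of 47 cell cycle genes 1 was higher and 5 lower (3 lower without GV replicate 2, GV replicate 3 or ZT replicate 1). Of 12 clock genes LNK1 (0.44 ± 0.09) and CDF2 (0.38 ± 0.11) were higher in GV, CDF2 losing its call without GV replicate 3. Of 18 mitochondrion-encoded genes 2 were called higher, COX1 at 3.11, 2.13 and 2.28 FPKM in GV against 1.33, 0.985 and 1.30 FPKM in ZT (0.66 ± 0.14, limma adjusted p = 0.000563) and NAD1B, whose call was lost in 9 of 17 alternatives. Nitrate reductase NIA2 was at 557, 608 and 574 FPKM in GV and at 439, 430 and 430 FPKM in ZT (0.42 ± 0.08, adjusted p = 0.00023). Of 3 hypoxia genes 0 were called (2 higher at an unadjusted p under 0.05).

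Enzymes of detoxification and of the cell wall are read against the 12.4% of all genes called lower and the 4.85% called higher. Glycosyltransferases and glutathione transferases were lower in 10 of 52 (19.2%) and higher in 4 (7.69%), with GSTU17 at 13, 16.7 and 16.9 FPKM in GV against 33.8, 34.3 and 33.9 FPKM in ZT (-1.09 ± 0.20, limma adjusted p = 8.07e-05). With quantile normalization GSTU17 differed by -0.47 and lost its call (adjusted p = 0.107). The number of these transferases lower was 5 without GV replicate 3, and the number higher was 2 without ZT replicate 1. Cytochromes P450 were lower in 17 of 79 (21.5%) and higher in 6 (7.59%), and cell wall enzymes lower in 8 of 37 (21.6%) and higher in 4 (10.8%), or 2 without GV replicate 2, ZT replicate 2 or ZT replicate 3. With quantile normalization the 3 lists were near even, with 7 lower and 6 higher transferases, 12 and 8 cytochromes P450 and 8 and 6 cell wall enzymes. ATXTH17, which remodels xyloglucan in growing walls, was at 1.81, 1.42 and 1.5 FPKM in GV against 7.15, 5.02 and 5.85 FPKM in ZT (-1.43 ± 0.16, adjusted p = 2.43e-09).

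The differences of 5 min were mostly not found in the same direction at the later times. MYB15 was at 0.721 FPKM in GV and 0.874 FPKM in ZT at 30 min (group means) and at 1.30 and 1.28 FPKM at 180 min, and neither difference was called (adjusted p = 0.65 and 0.97). ERF114 and PRN1 likewise had no called difference at either time. Of the 1130 genes lower in GV at 5 min, 243 (21.5%) were lower at 30 min, where 21.6% of all genes were, and 267 (23.6%) were higher, where 18.0% of all were. At 180 min 112 of them (9.91%) were lower, against 18.7% of all genes, and 505 (44.7%) were higher, against 26.1% of all.

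Of the 444 genes higher in GV at 5 min, more were called lower than higher at the later times. At 30 min 206 of them (46.4%) were lower in GV, against 21.6% of all genes, and 67 (15.1%) were higher, against 18.0%. At 180 min 240 (54.1%) were lower, against 18.7%, and 60 (13.5%) were higher, against 26.1%. PAP85 was at 5.07 FPKM in GV and 10.7 FPKM in ZT at 30 min (-0.95, limma adjusted p = 1.4e-09) and at 2.05 and 13.1 FPKM at 180 min (-2.22, adjusted p = 1.6e-20). Over the 9147 genes, group means of GV and ZT correlated at 0.966 at 5 min, 0.937 at 30 min and 0.922 at 180 min. In the same order, those of GV and control correlated at 0.971, 0.982 and 0.976. Those of ZT and control correlated at 0.938, 0.935 and 0.925, and those of ZT and GA3 at 0.922, 0.96 and 0.929. The part in these later differences of what sets the ZT libraries of 30 and 180 min apart from the GV and control libraries was not tested.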

How the data were processed

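The authors deposited 1 table of FPKM values with a column per library. Reads were processed with Bowtie2 2.2.3 and the TAIR10 build, per the submitters' processing notes. No source names the counter, its use of strand or the handling of reads that fit several genes, so overlapping antisense genes cannot be told apart and near-identical copies may share reads. The unit was taken to be FPKM. When multiplied by the deposited gene length, 100% of the values came out as whole reads (tolerance 0.05 reads). The size of 1 read was fitted per library, so any unit scaled by gene length would give this, and FPKM remains an assumption. The guvermectin columns carry no compound name and were matched by elimination, because every other column name pointed to another group. No per-sample column was left unmatched (0), and 3 damaged lines were dropped.

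Values were taken as log2(FPKM + 1), a scale that understates changes of low genes. They were fitted with limma 3.58.1 in R 4.3.3 (trend and robust settings), 1 mean per group, with all 54 libraries and 36 residual degrees of freedom. The 10622 genes that averaged 1 FPKM or more in any of 18 groups were fitted, and p-values were adjusted over them by Benjamini-Hochberg. A gene was called at an adjusted p under 0.05. No count test was run, since the values are not counts. Whether the 3 libraries of a group are separate cultures is not stated, so the spread within groups may be technical. The SEs and p-values reflect the spread within all 18 groups, not that of the 6 GV and ZT libraries alone. With only those 6 in the fit 1755 genes were called, 525 higher and 1230 lower in GV.

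The genes described are the 12 with the largest difference each way among called, non-overlapping genes that have a name and reach 5 FPKM in the higher group. To these were added up to 4 members per list with the smallest adjusted p, and all measured members of the cytokinin and purine lists. Genes without a name were counted but not described. The comparison and the gene lists were chosen with earlier results of these data known. A list of ribosomal genes was dropped because its symbols matched unrelated genes. Coordinates and promoter windows are from the TAIR10.1 genome. One promoter window is not reported here. Gene starts in the table equalled those of TAIR10.1 for 99.96% of matched rows. The fit was checked on simulated data. Alternatives were other sets of libraries, another pseudocount, no filter, other scalings, a stricter threshold, a replicate block and leaving out each library.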

Additional observations from a re-analysis of the deposited data

How the results depend on the processing

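No call changed direction in any of the 17 alternatives (0 genes), and 81 of the 111 called genes described kept their call in all of them, as did 23 of the 24 with the largest differences, UP6 excepted. Against 1574 called genes (444 higher and 1130 lower in GV), an adjusted p under 0.01 gave 994 (244 higher, 750 lower). Higher in GV were 718 with only the 18 libraries at 5 min in the fit, 681 without eBL at 30 min replicate 3, and 808 with quantile normalization, which left 866 lower. Leaving out each GV and ZT library in turn gave 1199 to 1358 called genes, 302 to 374 higher and 874 to 984 lower. Of the 111 called genes described, 97 to 102 were then still called, and 188 to 199 list members against 230. Same-numbered GV and ZT libraries did not deviate together (correlations -0.0312 to 0.00391), nor did other-numbered ones (-0.02 to 0.0212). The values thus showed no pairing by number, but they cannot settle whether the numbers mark a shared culture or batch. A fit with a replicate block called 1541 genes (431 higher, 1110 lower). Groups of 3 libraries and the few reads behind values under 1 FPKM limit the precision.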

Other observations

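Of the 9147 genes, 270 averaged 1 FPKM or more in GV only and 545 did so in ZT only. These genes entered through the group where they are higher, so they lend no support to either direction. Measured over all genes by the chi-square of read numbers over its degrees of freedom, pairs of a GV and a ZT library differed by 20 to 26.1, pairs of a GV and a control library by 14.3 to 16.8 and pairs of a ZT and a control library by 39.3 to 42.9. Pairs within GV differed by 3.09 to 5.4 and pairs within ZT by 2.54 to 2.99, where a value near 1 would mean sampling noise alone.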
